A study of Drosophila melanogaster with 3 samples.

Results

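CBP peaks inside the body of a gene that cover no listed gene start or end and are also occupied by SMARCAD1 were described in S2 cells. S2 is a macrophage-like cultured line of Drosophila melanogaster. A CBP peak was counted as intragenic when it lay inside the gene with the nearest transcription start site (TSS) and covered no start, end or whole gene in any of its entries, and as shared when it had at least 1 bp in common with a SMARCAD1 peak. Of 3762 CBP peaks, 627 were intragenic, and 344 of these were shared with SMARCAD1. They lay in 271 host genes. Some were close to a start: the smallest distance from a peak edge to a listed start was 114 bp. No listed start lay within 1000 bp for 267 of the 344. The rule thus used the position of both sets of peaks, and the numbers that follow directly from it are given as a description.

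The peaks came from ChIP-seq with custom-made anti-CBP or anti-SMARCAD1 (ASNA) antibodies, 1 library each, and an input DNA library, for which no table was used here. All cells had received dsRNA of EGFP, the nonspecific control of the RNA interference experiments, for 6 h at 26 °C without serum, and were then kept for 72 h with serum. No knockdown of either protein was among these samples. The tables give positions, widths and distances in bp and no peak height, read count or P value, so the depth is unknown and strong and weak peaks count alike. With 1 library per antibody there is no replicate and no test between conditions. Intervals in this text are 95% intervals for counting error alone, computed as if peaks or genes were independent, and a difference described with them is one between these libraries.

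CBP, encoded by nej in Drosophila, is an acetyltransferase of histones that is recruited by DNA-bound transcription factors and is found at promoters and enhancers. Many Drosophila enhancers lie in introns, often within the long first intron of a regulatory gene. SMARCAD1, encoded by Etl1, belongs to the Snf2 family of ATP-dependent chromatin remodelers. A peak in these tables marks where chromatin was recovered with the antibody, and the assignment to introns or exons was not made here because only the outer ends of each gene are listed.

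By the rule, the genes with the most shared intragenic peaks were ct with 5, and Mnt, NFAT and bun with 4 each. This order depends on the rule. Further CBP peaks inside bun and NFAT overlapped SMARCAD1 but were not counted by it. Examples were centred 70880.5 bp from the start of bun and 23534 bp from that of NFAT. The gene ct (cut) encodes a homeodomain transcription factor, and it is 66876 bp long in the tables. Its 5 shared CBP peaks were centred 18211, 23854, 26503, 31859 and 41673 bp downstream of the TSS and were 1456, 3609, 1308, 1175 and 3714 bp wide. The farthest of them, at chrX:7542998-7546711, nearly coincided with a SMARCAD1 peak at chrX:7543059-7546775, with 3653 bp in common and a SMARCAD1 centre 62.5 bp further downstream. The 2 intragenic CBP peaks of ct closest to its start were without SMARCAD1, and no peak of either antibody covered the start. In ct, shared occupancy was thus found in a stretch in the middle of the gene, between 27.2 and 62.3% of its length.

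Mnt encodes a partner of Max that antagonises Myc. Its shared CBP peaks were centred 2470, 5717, 16772 and 23726 bp from the TSS of this gene of 28980 bp. In each of these 4 pairs the peaks overlapped closely, and the SMARCAD1 centre minus the CBP centre was -178, 36, 189.5 and -36.5 bp (positive is downstream in the gene). The start of Mnt was covered by a CBP peak and by no SMARCAD1 peak. NFAT, a transcription factor related to the Rel family, had shared peaks centred 5352, 7270, 9812 and 16410 bp from its TSS, of 770, 1054, 3400 and 2407 bp. At NFAT the start itself was covered by both antibodies. The arrangement in bun, which encodes a leucine zipper protein of the TSC22 family, was of another kind. The 3 shared CBP peaks of 1115, 1495 and 1638 bp lay within a single SMARCAD1 peak of 7662 bp, and the fourth, of 2240 bp, was matched by a SMARCAD1 peak of its own of 2329 bp, with centres 3.5 bp apart.

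**Figure D1:**
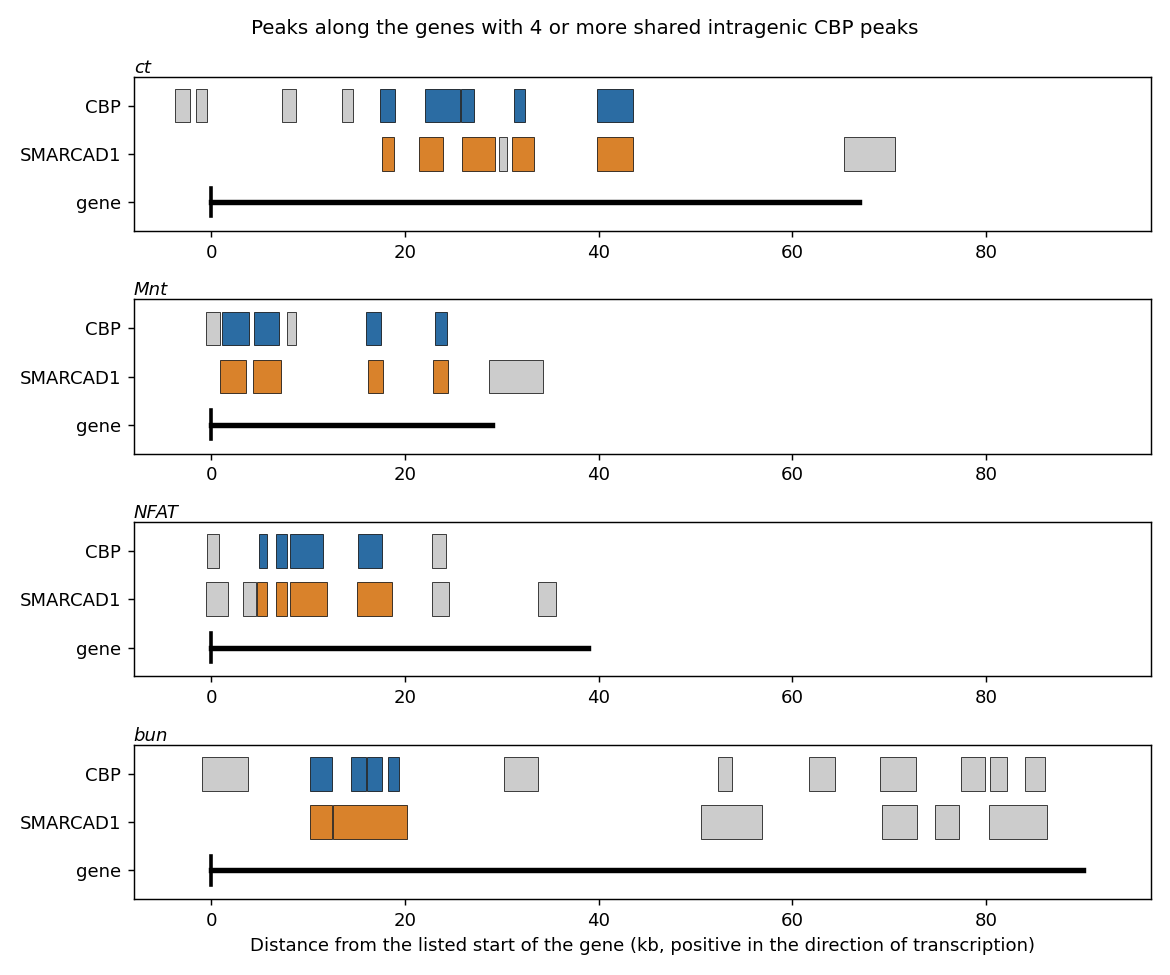
CBP and SMARCAD1 peaks along ct, Mnt, NFAT and bun, in kb from the listed start of the gene, with the gene drawn as a black line; blue boxes are shared intragenic CBP peaks, orange boxes the SMARCAD1 peaks that overlap them, and grey boxes all other peaks. Grey CBP peaks inside a gene either lack SMARCAD1 or are nearer to the start of another gene. In bun, 3 blue boxes sit over 1 SMARCAD1 peak of 7662 bp, whereas in Mnt each of the 4 has its own.

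A further 12 genes held 3 shared intragenic peaks. They included the transcription factor genes CHES-1-like (forkhead family), pnt (ETS family), shn (a zinc finger factor of Dpp signalling) and CG5060, which is part of the present gene cic, an HMG-box repressor. They also included the kinase genes sgg (GSK3), tlk (Tousled-like kinase) and Abl, the deacetylase gene HDAC4 and shot, which encodes a cytoskeletal linker of the spectraplakin family. The remaining ones were CG14801 (now prage), CG30015 and CG30497. In pnt the shared peaks were centred 16456, 19780 and 24279 bp from the TSS, and the SMARCAD1 centres lay 9, 67 and 576 bp downstream of the CBP centres. In sgg they were centred 8707, 13195 and 19182 bp from the TSS, although no peak of either antibody covered the start of sgg. Of the 16 genes with 3 or more shared intragenic peaks, 8 were on X, namely ct, Mnt, NFAT, tlk, sgg, CG14801, CHES-1-like and HDAC4. X held 91 of the 271 host genes and 951 of the 6016 listed genes. In all, 219 hosts had 1 shared peak and 36 had 2. Neighbouring shared peaks of a gene were a median of 3663 bp apart from centre to centre (73 pairs, interval 2711 to 4488 bp).

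The widest shared intragenic peaks were in RhoGAP18B, mbc, larp, fry and chinmo. The widest, of 8002 bp at chrX:19050270-19058271, lay in RhoGAP18B and was matched by a SMARCAD1 peak of 8153 bp. It was followed by a peak of 7695 bp in mbc, a Rac activator of the DOCK family, one of 6269 bp in the RNA-binding protein gene larp, one of 5434 bp in fry and one of 5339 bp in chinmo, a BTB zinc finger gene. In these 5 genes, in the same order, the SMARCAD1 centre minus the CBP centre was -55.5, -533.5, 401, -130 and 134 bp, each less than 0.1 of the width of the CBP peak. Shared peaks of 5000 bp or more numbered 7 of 344, against 12 of the 283 intragenic CBP peaks without SMARCAD1. Of the shared intragenic peaks, the farthest from the TSS were at rl (the ERK MAP kinase, 44035 bp), CG17018 (now Marf1, 42428 bp) and ct (41673 bp). They were followed by those at Msp-300 (a nesprin, 36850 bp) and again ct (31859 bp). The farthest unshared one was at 48000 bp. The rl peak was the only shared intragenic peak outside the 5 large arms 2L, 2R, 3L, 3R and X.

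Over all 344, the CBP peak was mostly enclosed by a broader SMARCAD1 peak. The median width was 1601.5 bp for CBP (interval 1505 to 1762 bp, quartiles 1134 and 2496 bp) and 2574 bp for the SMARCAD1 peak with the largest overlap (2406 to 2844 bp, quartiles 1686 and 4103 bp). The SMARCAD1 peak was the wider one in 299 pairs. In 225 pairs (65.4%, 60.2 to 70.2%) it contained the CBP peak whole, in 14 the CBP peak contained it, and in 105 neither was contained. The shared stretch had a median of 1549 bp. It made up a median of 72.0% of the SMARCAD1 peak (65.6 to 77.1%). The partners also were wider than SMARCAD1 peaks in general, which had a median of 1792 bp. The 193 intragenic SMARCAD1 peaks without CBP had a median of 1438 bp (1334 to 1544 bp). The partner median counts pairs, and the 344 pairs had 325 distinct partners. A SMARCAD1 peak with several shared CBP peaks thus enters it more than once. A wide peak has more chance to overlap another, so these widths are not independent of the rule.

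Paired peaks have to overlap, which limits how far apart their centres can be, so these distances are not independent of the rule. A separation of 200 bp or less was found in 170 pairs (49.4%, 44.2 to 54.7%). The separation was 500 bp or less in 228 pairs (66.3%, 61.1 to 71.1%) and more than 1000 bp in 53. Measured in the direction of transcription, the SMARCAD1 centre minus the CBP centre had a median of -15 bp (-46.5 to 6.5 bp), with SMARCAD1 downstream in 159 pairs and upstream in 185. This balance differed with the kind of SMARCAD1 peak. The partner was itself intragenic in 289 pairs (84.0%, 79.8 to 87.5%), and there the median was 2 bp (-24.5 to 25 bp), with 146 downstream and 143 upstream. In 44 pairs (12.8%, 9.67 to 16.7%) the SMARCAD1 peak extended over the start of the host gene, whereas the CBP peak did not. Its centre was then upstream in 42 of the 44, and the median over the 44 was -955.75 bp (-1573.5 to -793.5 bp), as follows from its reach to the start. LanB1, which encodes a laminin chain, is an example, with a SMARCAD1 peak of 6918 bp over the start and a CBP peak of 3077 bp centred 2175 bp inside. In the remaining 11 pairs the SMARCAD1 peak covered a gene end only (5) or fell in no such class (6).

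**Figure D2:**
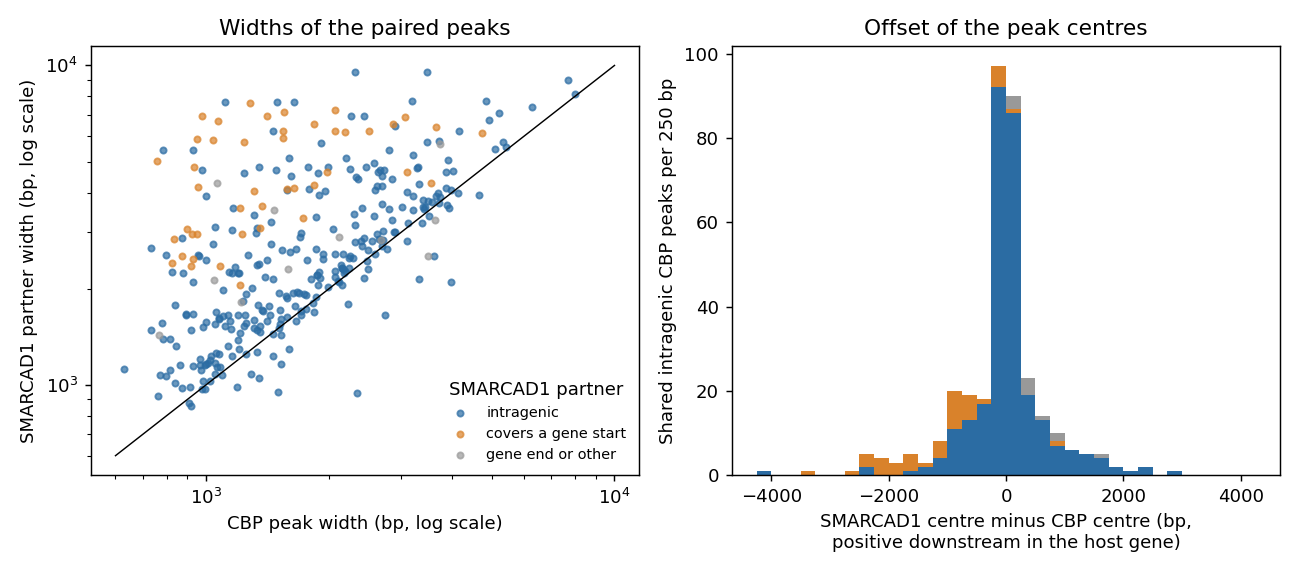
Left, width of the SMARCAD1 partner against that of the shared intragenic CBP peak, both in bp on log axes, 1 point per pair and a line of equal width; right, number of pairs by the offset of the SMARCAD1 centre from the CBP centre in bp, positive downstream. Colours give the class of the SMARCAD1 peak: most points lie above the line (299 of 344), the 289 intragenic partners are centred near 0, and the 44 that cover a gene start lie mostly upstream.

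The threshold of 1 bp separated few borderline cases. The smallest overlaps were 11 bp in pgant5, 67 bp in CG30497, 113 bp in Fim and 153 bp in CG5261. On the other side, the nearest SMARCAD1 peak was 12 bp away in hipk, 53 bp in Rab35, 55 bp in CG13004 and 76 bp in CG18811. Of the 283 intragenic CBP peaks without SMARCAD1, 38 (13.4%, 9.94 to 17.9%) were within 500 bp of a SMARCAD1 peak, and the median gap was 4614 bp (3551 to 5589 bp). Without read counts, a SMARCAD1 peak that is missing cannot be told from one below detection.

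The question whether intragenic CBP peaks are shared more or less often than other CBP peaks was addressed next. The share was 54.9% of intragenic CBP peaks (51.0 to 58.7%), 53.6% of those covering a gene start (1204 of 2247, 51.5 to 55.6%) and 52.7% of all CBP peaks (1982 of 3762). These intervals overlap, and the share inside genes was near that background. Seen from the other protein, 302 of 495 intragenic SMARCAD1 peaks (61.0%, 56.6 to 65.2%) overlapped a CBP peak, against 58.9% of all SMARCAD1 peaks and below the 70.8% (68.6 to 72.9%) of 1687 SMARCAD1 peaks that cover a gene start.

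Sharing differed between chromosomes. On X, 126 of 183 intragenic CBP peaks were shared (68.9%, 61.8 to 75.1%), against 217 of 441 on 2L, 2R, 3L and 3R (49.2%, 44.6 to 53.9%), a difference of 19.6 percentage points (11.2 to 27.4). The intervals of the autosomal arms overlap, with 47.3% on 2L, 54.1% on 2R, 45.4% on 3L and 49.6% on 3R. X thus held 36.6% of the shared intragenic peaks (31.7 to 41.8%) and 20.1% of the intragenic CBP peaks without SMARCAD1 (15.9 to 25.2%). A difference was also seen outside gene bodies when CBP peaks were counted. Among CBP peaks covering a gene start, 67.3% were shared on X and 51.3% on the autosomal arms, 16.1 percentage points apart (10.5 to 21.3), and among all CBP peaks it was 66.8% and 49.9%. Counted from SMARCAD1, the difference was smaller or not seen. Of intragenic SMARCAD1 peaks, 68.2% (118 of 173) overlapped a CBP peak on X and 58.3% (183 of 314) on the autosomal arms, 9.93 percentage points apart (0.918 to 18.4). Of those covering a gene start it was 69.8% (229 of 328) and 71.3% (964 of 1352), a difference of -1.48 percentage points whose interval includes 0 (-7.17 to 3.84). The size of the difference on X thus depended on which set of peaks was counted. CBP peaks were also intragenic more often on X (183 of 701, 26.1%, 22.99 to 29.5%) than on the autosomal arms (441 of 2945, 15.0%, 13.7 to 16.3%). Genes listed on X were somewhat longer, with a median of 3041 bp (2797 to 3292 bp) against 2357 bp (2258 to 2460 bp). The number of SMARCAD1 peaks on X (772 of 3211) was higher than that of CBP peaks (701 of 3762), and the part of peak number, gene length and DNA copy number in the difference was not tested.

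**Figure D3:**
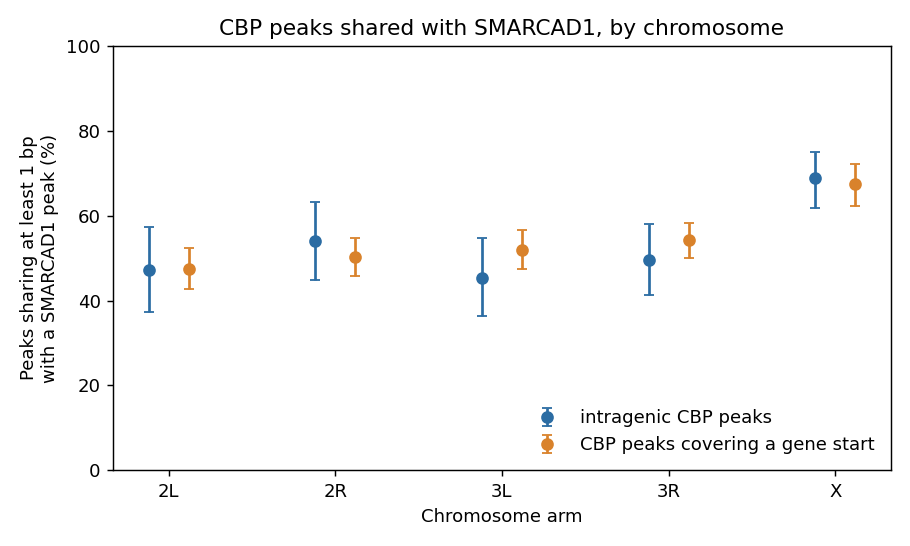
Percentage of CBP peaks that share at least 1 bp with a SMARCAD1 peak on each large chromosome arm, for intragenic peaks (blue) and for peaks covering a gene start (orange); bars are Wilson 95% intervals. X lies above the 4 autosomal arms for both classes, at 68.9% and 67.3%.

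Sharing on X and on the autosomal arms was also read by the width of the CBP peak. The intragenic CBP peaks were divided by width into 4 classes of nearly equal number, a division made after the data were seen. In the narrowest class, of 628 to 1082 bp, 39 of 69 peaks on X were shared (56.5%) and 39 of 86 on the autosomal arms (45.3%), a difference of 11.2 percentage points whose interval includes 0 (-4.57 to 26.1). In the widest, of 2509 bp and more, 25 of 26 peaks on X were shared (96.2%, 81.1 to 99.3%), against 60 of 130 on the autosomal arms (46.2%, 37.8 to 54.7%), a difference of 50 percentage points (32.7 to 58.9). The single wide peak on X without SMARCAD1 was one of 10885 bp in Smr, which encodes a corepressor and is named here after its value was seen. The intervals of these differences do not overlap. From the narrowest to the widest class the share was 56.5%, 65.5%, 80% and 96.2% on X, and 45.3%, 50.5%, 54.0% and 46.2% on the autosomal arms. Width enters the rule, since a wide peak overlaps more easily, and these shares are a description. Intragenic CBP peaks were narrower on X than on the autosomal arms in the shared class (median 1324 against 1784 bp) and in the class without SMARCAD1 (1072 against 1790.5 bp).

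**Figure D4:**
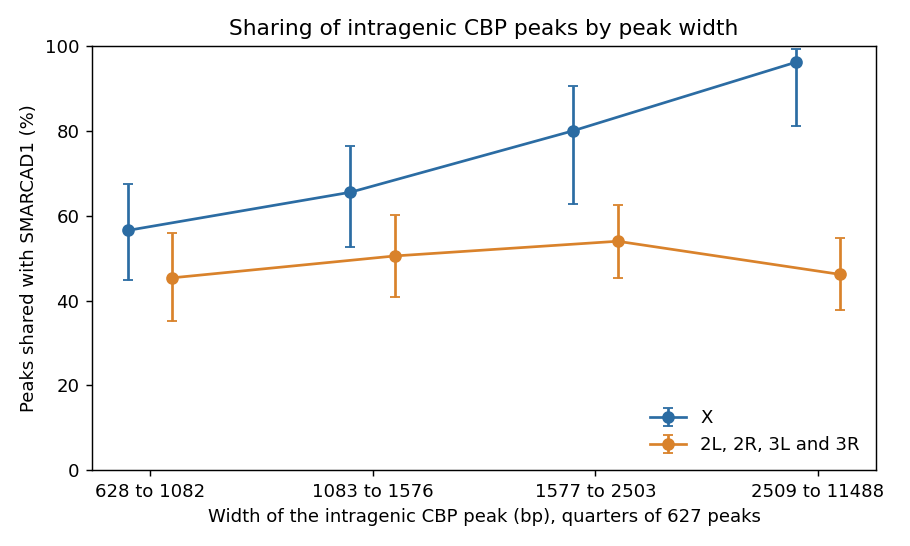
Percentage of intragenic CBP peaks shared with SMARCAD1 in 4 classes of CBP peak width in bp, on X (blue) and on the autosomal arms 2L, 2R, 3L and 3R (orange), with Wilson 95% intervals. The share on X goes from 56.5% to 96.2%, and on the autosomal arms it stays between 45.3% and 54.0%.

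The position within the gene was compared between shared and unshared intragenic CBP peaks. The rule places both toward the start, because the nearest TSS has to be that of the host gene. The median distance from the TSS to the peak centre was 4354.5 bp (3647 to 4912 bp) for shared peaks and 4336 bp (3623 to 5068 bp) for those without SMARCAD1. The upper quartiles were 9988 and 7502 bp. Of the shared peaks, 85 (24.7%, 20.4 to 29.5%) were centred 10000 bp or more from the TSS, against 41 (14.5%, 10.9 to 19.1%) of those without SMARCAD1, a difference of 10.2 percentage points (3.97 to 16.3). With the nearest peak of each host gene alone, the difference was 6.81 percentage points (1.05 to 12.5). This distance was chosen after the data were seen. The interval included 0 on X alone (-1.81 to 22.0) and not on the autosomal arms (1.86 to 16.6). As a share of gene length, the median position was 29.9% (26.6 to 33.1%) for shared and 28.5% (24.6 to 31.1%) for unshared peaks, and the upper quartiles were 43.9% and 41.0%. A further 371 CBP peaks lay inside a gene without touching a start or end but were nearest to the TSS of another gene. Of these, 179 were shared (48.2%, 43.2 to 53.3%). Over the 181 entries that place these peaks inside a gene, the median position was 64.4% of the gene length, so that shared peaks also occurred in the distal part of genes.

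Host genes were long. Their median length was 14408 bp (12751 to 16420 bp), against 2464.5 bp over the 6016 genes listed in either table. A gene can host such a peak only if the whole peak fits inside it, so the rule itself favours long genes. Hosts of intragenic CBP peaks without SMARCAD1 were of similar length, with a median of 15157 bp (12447 to 17134 bp). Of all listed genes, 4.50% hosted a shared intragenic peak, but of the 889 genes of 10000 bp or more, 20.2% did (180 genes). Among these long genes, 57 of 161 on X (35.4%, 28.4 to 43.1%) and 122 of 704 on the autosomal arms (17.3%, 14.7 to 20.3%) were hosts. For intragenic CBP peaks without SMARCAD1, the shares were close, 25 of 161 on X (15.5%) and 128 of 704 on the autosomal arms (18.2%). Both kinds of peak occurred together in 51 genes, such as ct, pnt, shot and InR, the insulin receptor gene.

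Occupancy at the start of the host gene was then examined, since it was not used in choosing the shared peaks except where 1 SMARCAD1 peak spans both. A CBP peak covered the start of 158 of the 271 hosts (58.3%, 52.4 to 64.0%), against 59.9% of all listed genes. A SMARCAD1 peak covered that of 137 (50.6%, 44.6 to 56.5%), against 45.9% of all listed genes. A gene is listed only because a peak was assigned to it, so these shares are not those of all genes in the genome. Hosts are listed through a peak inside them, whatever lies at their start, and many other genes through a peak at the start. The listed genes are therefore not a like baseline for hosts. Genes that held only shared intragenic peaks (220) were compared with genes that held only unshared ones (192). For CBP, 59.5% and 50% of the starts were covered, a difference of 9.55 percentage points whose interval reaches 0 (-0.0743 to 18.9). For SMARCAD1, 117 of 220 (53.2%, 46.6 to 59.7%) and 35 of 192 (18.2%, 13.4 to 24.3%) were covered, a difference of 34.95 percentage points (26.0 to 43.0). Whether the first share is high or the second low cannot be read from the 45.9% of all listed genes, which are listed in another way. Part of the difference came from SMARCAD1 peaks that reach from the start to the intragenic CBP peak. When only SMARCAD1 peaks that share no bp with a shared intragenic peak of the gene were counted, 75 of 220 starts (34.1%, 28.1 to 40.6%) were covered, and the difference was 15.9 percentage points (7.37 to 23.9). It was 14.1 percentage points on the autosomal arms (4.55 to 23.5) and 13.2 on X, where the interval includes 0 (-6.96 to 30.1). It was also smaller when 50% or more of both peaks had to be in common, with 67 of 149 starts (45.0%) against 81 of 256 (31.6%), a difference of 13.3 percentage points (3.56 to 22.98).

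Starts covered by both antibodies made up 43.2% (36.8 to 49.8%) of the genes with shared peaks only, 14.1% (9.85 to 19.7%) of those with unshared peaks only and 31.6% of all listed genes. The listed genes are again not a like baseline. A SMARCAD1 peak that reaches from the start to the CBP peak can count in the first group alone. Without such peaks the first share was 29.1% (23.5 to 35.4%), and the difference was 15.0 percentage points (7.09 to 22.6). Examples with both at the start are mbc, hep (the kinase upstream of JNK) and mam (a coactivator of Notch). HDAC4 is another, but there the same SMARCAD1 peak reaches from the start to a shared CBP peak. In 67 of the 220 genes (30.5%) neither antibody covered the start, as in sgg, Abl, htl (an FGF receptor) and vkg (a type IV collagen). For these genes the tables list peaks in the gene body without one at the single start given for the gene. A start that is not listed could not be examined. A SMARCAD1 peak covered the end of 45 of the 220 genes (20.5%, 15.7 to 26.3%) and of 27 of the 192 (14.1%, 9.85 to 19.7%), and the interval of this difference includes 0 (-1.003 to 13.6).

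**Figure D5:**
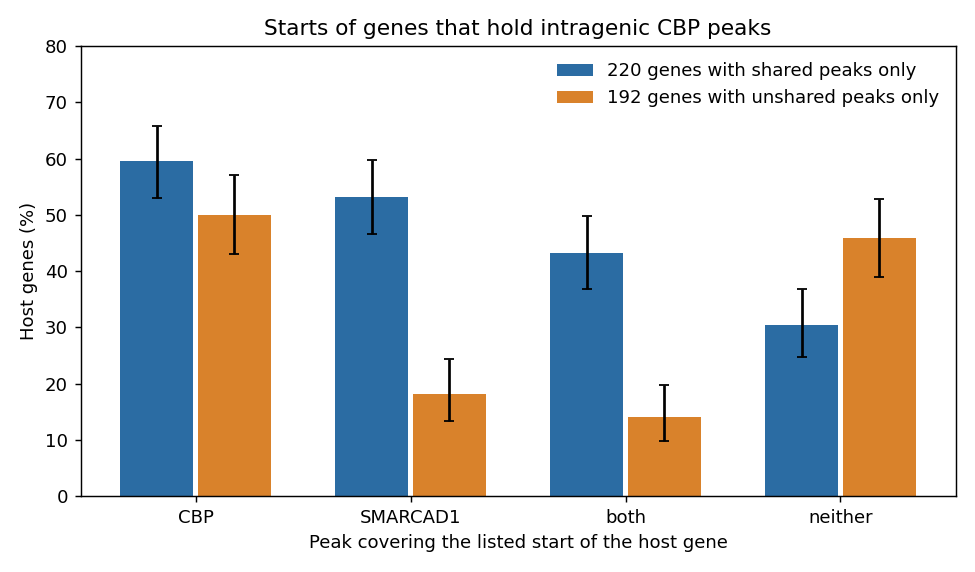
Percentage of host genes whose listed start is covered by a CBP peak, a SMARCAD1 peak, both or neither, for 220 genes with only shared intragenic CBP peaks (blue) and 192 genes with only unshared ones (orange), with Wilson 95% intervals. The bars for SMARCAD1 are 53.2% and 18.2%, and those for CBP 59.5% and 50%.

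Host genes were grouped by lists of signalling and cell type genes. The largest number came from genes of actin and cell shape, which is also the list with the most listed genes. Of these 36 genes, 9 (25%) hosted 14 shared intragenic peaks. The share was 4.50% over all listed genes and 20.2% over listed genes of 10000 bp or more. They were zip (nonmuscle myosin heavy chain, 2 peaks), Tm1 (tropomyosin, 2 peaks), mbc (2 peaks), shot (3 peaks), and with 1 peak each cher (filamin), Moe (moesin), capu (a formin), Pak (a kinase activated by Rac and Cdc42) and mys (an integrin beta chain). The 14 peaks were 1191 to 7695 bp wide, with a median of 2671 bp, and 8 of them were wider than the upper quartile of all shared intragenic peaks. Among the wide ones were those of Tm1 (3107 and 5108 bp), Pak (3584 bp) and cher (3419 bp), and among the narrow ones those of mys (1308 bp) and shot (1347, 1772 and 1857 bp). The centres of CBP and SMARCAD1 were within 200 bp in 4 of the 14. The SMARCAD1 centre minus the CBP centre was 19 bp in cher and -72.5 bp in Pak, but -1072.5 and 1068 bp in zip, where both CBP peaks overlapped the same SMARCAD1 peak. Unshared intragenic CBP peaks occurred in 8 genes of this list (22.2%), 4 of them the same genes, against 4.04% of all listed genes.

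Of the receptor tyrosine kinase and Ras pathway, 5 of 30 listed genes hosted 9 shared peaks. They were the transcription factor genes pnt and CG5060 (cic) at its nuclear end, rl, the receptor gene htl and Pvf1, which encodes a ligand related to PDGF and VEGF. An unshared intragenic CBP peak was listed in 1 gene of this list, pnt. Of 18 genes of the ecdysone response, 4 hosted shared peaks and 6 unshared ones, with ftz-f1 and vri in both counts, and 2 hosted a peak with 50% or more of both peaks in common. Of all listed genes, 4.04% hosted an intragenic CBP peak without SMARCAD1. The shared ones were in Eip74EF (an ETS factor induced by ecdysone), ftz-f1 (a nuclear receptor), tai (a coactivator of the ecdysone receptor) and vri (a bZIP repressor), and br and Eip93F were among those with unshared peaks only. No test was run between lists, and the counts are small.

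For the insulin and TOR list, 3 of 19 listed genes were hosts: InR, sgg and SNF4Agamma (a subunit of AMP-activated kinase). For blood cell identity it was 3 of 20: vkg, LanB1 and Dscam. Unshared peaks were also found in 3 genes of this list, namely Dscam, Mmp1 and the GATA factor gene srp, the last 2 with unshared peaks only. In the JAK-STAT and JNK list, hep and msn were hosts (2 of 20), and Tak1, Traf4, puc and upd3 had unshared peaks only. In the Notch list it was mam (1 of 9) and in the bZIP list vri (1 of 14). Genes with unshared peaks numbered 3 in the insulin and TOR list, 5 in JAK-STAT and JNK, 1 in Notch and 3 in bZIP. With 50% or more of both peaks in common, hosts numbered 9 for actin and cell shape and 4 for the Ras pathway. They numbered 3 for insulin and TOR, 2 for blood cell identity, 2 for JAK-STAT and JNK, 1 for bZIP and 0 for Notch. For unshared peaks, the lists other than the Ras pathway (3.33%) had 11.1 to 33.3% of their genes as hosts, above the 4.04% of all listed genes. For shared peaks, all 8 lists lay above the 4.50% of listed genes that hosted one. Against the 20.2% among genes of 10000 bp or more, the long genes of the lists were hosts in 7 of 17 for actin and cell shape, 4 of 16 for the Ras pathway, 4 of 13 for the ecdysone response, 3 of 8 for insulin and TOR, 2 of 9 for blood cell identity, 2 of 8 for JAK-STAT and JNK, 1 of 5 for Notch and 1 of 8 for bZIP factors.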

How the data were processed

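For each antibody the authors aligned reads (BWA), called peaks against a control (MACS) and annotated the nearest genes (ChIPpeakAnno). For peak calling the paper names a P value cutoff and no correction for multiple testing, so weak peaks may be among those listed. What they deposited is where each peak and gene starts and ends, with widths and distances, all in bp. The tables, with 6495 entries for CBP and 5859 for SMARCAD1, hold no count, score or P value. The notes name dm6, but of 122 genes on X that hold shared or unshared intragenic CBP peaks and were found by name in that release, 0 had the same start or end, and of 68 on 2L, 19 had. Coordinates are printed as deposited, no sequence was read, and no peak was assigned to exons. Of 6016 gene names, 5865 were matched to a current symbol.

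Overlap was counted from 1 bp, and the SMARCAD1 peak with the largest overlap was taken as the partner. Shares have Wilson intervals, differences of shares Newcombe intervals and medians binomial intervals, computed with Python 3.11.15, pandas 2.3.3, numpy 2.4.6 and scipy 1.17.1. Overlap and medians were tested on simulated data. Genes named are hosts of 3 or more shared intragenic peaks, of the 5 widest or the 5 farthest from the TSS, and hosts in 8 gene lists; exceptions are stated or serve as borderline or unshared examples. Members and lists were chosen with earlier results of these data known. Alternatives were other definitions of overlap, of intragenic peaks and of a covered start.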

Additional observations from a re-analysis of the deposited data

How the results depend on the processing

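Alternatives were run for 14 values, giving 38 further values. Of these, 26 fell inside the counting interval of the value in the report (for a count, less than 1.5 times away), and 12 did not. The median offset was -15 bp in the report and 2 bp with intragenic partners alone, and both intervals include 0. When 50% or more of each peak had to be in common, 38.8% of intragenic CBP peaks were shared, the median CBP width was 1825 bp, and SMARCAD1 covered 44.0% of host starts, against 33.4% for hosts of the peaks that were then unshared. With 1 bp in common, the shares over all hosts of each kind were 50.6% and 22.6%, so the difference went from 27.9 (19.7 to 35.5) to 10.5 percentage points (2.01 to 19.0). With centres within 200 bp, 170 peaks (27.1%) were shared. The median distance from the TSS was 3234.5 bp to the edge of the peak and 3188 bp with 1 peak per host gene. With a peak within 500 bp of the start in place of one that covers it, CBP was found at 66.4% and SMARCAD1 at 60.9% of hosts of shared peaks, and CBP at 61.3% of hosts of unshared ones. Without SMARCAD1 peaks that overlap a shared peak of the gene, an alternative added after the data were seen, SMARCAD1 covered 33.9% of host starts. The checks of starts in genes with 1 kind of peak alone, and of X from the SMARCAD1 side, were likewise added after the data were seen. Apart from what these definitions set themselves, the cause was not tested. The excess on X among intragenic CBP peaks was between 13.3 and 20.7 percentage points under 6 alternatives added after the data were seen. A stricter peak threshold could not be run, as the tables hold no score. No paired analysis was possible because the design has a single library for each antibody. The unknown depth limits each statement about a peak that is missing.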

Other observations

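Of the 344 shared intragenic CBP peaks, 14 lay inside 2 listed genes at the same time, so their host cannot be decided from position alone. Among them were both peaks of argos, of 2733 and 975 bp, which lay within a single SMARCAD1 peak of 4715 bp, and a peak of 1146 bp in Sxl, the master gene of sex determination. These genes were chosen after their values were seen, and argos is not counted in the Ras pathway list because its name in the tables was not matched. A SMARCAD1 peak held more than 1 shared intragenic CBP peak in 18 of 325 cases (5.54%, 3.53 to 8.58%).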
